A study of Mus musculus with 6 samples.

Results

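The enzymes that oxidise fatty acids in mitochondria were examined in the left ventricle of obese mice through 10 genes, Cpt1a, Cpt2, Acadvl, Acadl, Acadm, Acads, Hadha, Hadhb, Hadh and Etfdh, of 18193 genes represented on the arrays. They were chosen by name, as the genes to which the platform's annotation assigns 19 single-gene probe sets. In GRCm38.p6 they lie on chromosome 1 (Acadl), 3 (Acadm, Hadh and Etfdh), 4 (Cpt2), 5 (Acads, Hadha and Hadhb), 11 (Acadvl) and 19 (Cpt1a). All 10 genes and all 19 probe sets passed the filter on low signals. The Lira group comprised 3 male C57BL/6 mice that received an agent which the labels call Lira and do not spell out. The placebo group comprised 3 male C57BL/6 mice given placebo. All mice were 6 months of age and were kept on a high fat diet during 16 weeks, placebo mice included, so lean animals are not part of the comparison. Of the 10 animals in the design text, these 6 are described here. Each ventricle was hybridised to 1 array, and signals are in arbitrary linear units.

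The heart draws most of its energy from fatty acids. A long-chain fatty acid enters the mitochondrion as a carnitine ester, made by carnitine palmitoyltransferase 1 in the outer membrane and turned back into acyl-CoA by carnitine palmitoyltransferase 2 at the inner membrane. Inside, repeated rounds of dehydrogenation, hydration, a further dehydrogenation and thiolysis shorten the chain and release acetyl-CoA, and the electrons pass through electron transfer flavoprotein and its dehydrogenase to ubiquinone. Transcription of these enzymes is driven by the nuclear receptor PPAR-alpha, the estrogen-related receptors and their coactivator PGC-1alpha.

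Signals of the beta-oxidation enzymes were close between Lira and placebo ventricles, and 0 of the 10 genes differed at an adjusted p of 0.05 in limma with Benjamini-Hochberg adjustment over 12735 genes. The corresponding share of all genes tested was 0.055%. Before adjustment, 0 of 10 reached a p under 0.05 as well, against 6.02% of all genes. Log2 differences, Lira minus placebo, ran from -0.22 for Cpt1a to 0.08 for Hadhb, with 6 genes higher and 4 lower, a median of 0.01 and a median over all genes of 0.008. The 95% intervals of the 9 genes other than Cpt1a lay between 0.86-fold, the lower bound of Acads, and 1.21-fold, the upper bound of Hadhb. Cpt1a had a wider interval, from 0.71-fold to 1.04-fold. The absence of a call does not show that the enzymes were equal, and changes within these intervals are compatible with the data from 3 mice per group. The intervals are no limit of detection. Larger differences of other genes were not called either, such as 1.68-fold for the smooth muscle gene Acta2 (adjusted p = 0.59 in limma).

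**Figure D1:**
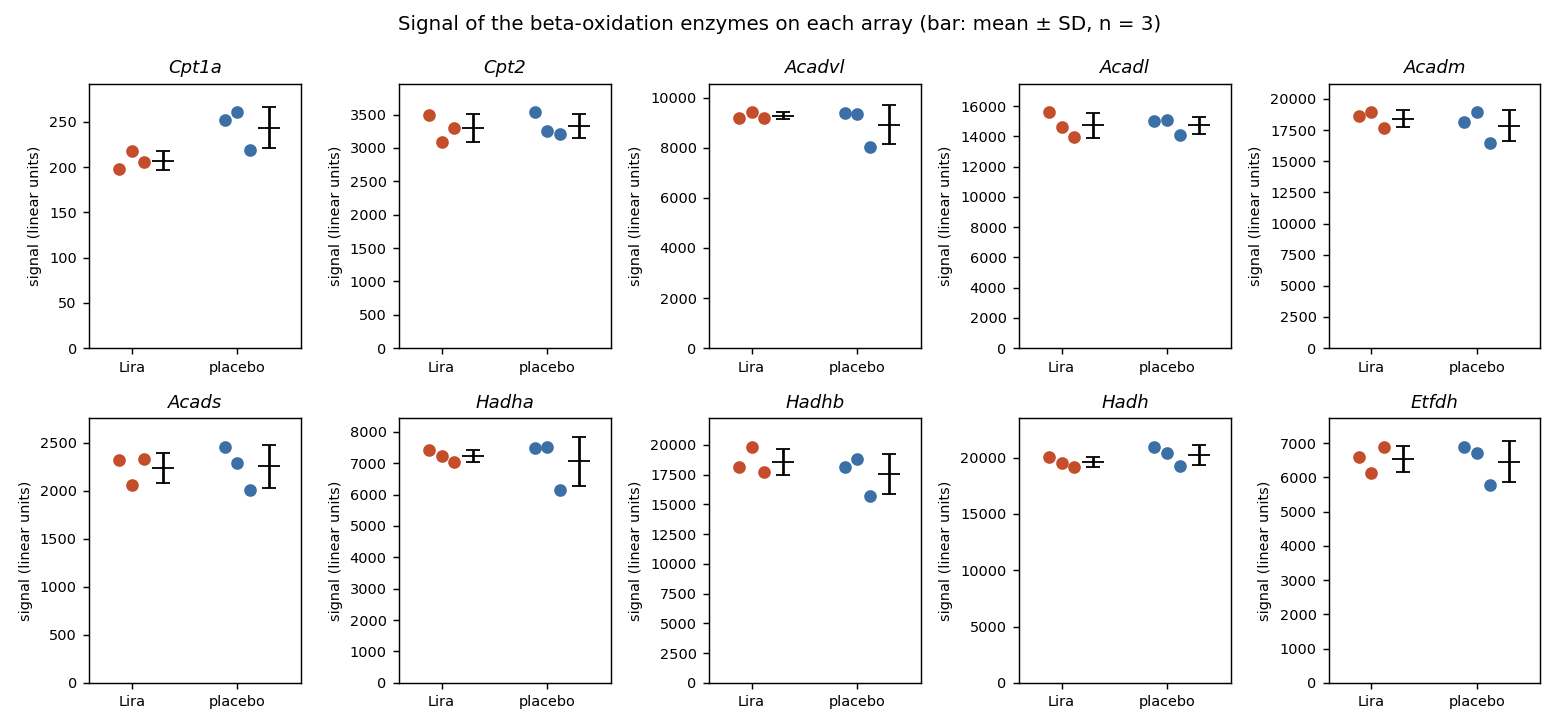
Signal of the probe set used for each of the 10 genes, in linear units from 0, with 1 point per array, Lira left and placebo right, and a bar for the mean and SD of 3 arrays. The groups overlap in every panel except that of Cpt1a, where the highest Lira array is at 218.36 and the lowest placebo array at 218.47.

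Cpt1a encodes the liver form of carnitine palmitoyltransferase 1, the rate-controlling entry step, while adult cardiomyocytes mainly use the muscle form, Cpt1b. The array carries 1 probe set for Cpt1b, which the annotation shares with other genes, so Cpt1b was not analysed here. Cpt1a measured 198, 218 and 205 signal units on the Lira arrays and 252, 261 and 218 on the placebo arrays. All Lira values lay below all placebo values, but Lira replicate 2, at 218.36, and placebo replicate 3, at 218.47, were almost equal. The log2 difference was -0.22 ± 0.13 (SE), with an adjusted p of 0.87 in limma. Among the 10 genes, this was the 1 whose groups did not overlap, against 11.4% of all genes tested in either direction and 5.41% lower with Lira. With each array centred on its median the Cpt1a groups overlapped as well. In whole ventricle, fewer cells of a type and less RNA per cell cannot be told apart.

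Cpt2, the inner-membrane transferase, measured 3499, 3091 and 3305 on the Lira arrays and 3538, 3246 and 3206 on the placebo arrays. The groups overlapped, with the highest value on placebo replicate 1 and the lowest on Lira replicate 2. The log2 difference was -0.01 ± 0.09 (SE), and the interval ran from 0.87-fold to 1.13-fold.

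The acyl-CoA dehydrogenases catalyse the first step of each round and differ in the chain length they prefer. Acadvl, the very long-chain enzyme bound to the inner membrane, measured 9192, 9428 and 9192 with Lira and 9384, 9339 and 8019 with placebo. Placebo replicate 3 was the low value, and the other 5 arrays lay within 9192 and 9428. The log2 difference was 0.06 ± 0.08 (SE, adjusted p = 0.95 in limma). Acadl, the long-chain enzyme, measured 15611, 14636 and 13972 with Lira and 15038, 15053 and 14067 with placebo, and its means of 14740 ± 824 and 14720 ± 565 (SD, n = 3 each) differed by 0.001 on the log2 scale. The 3 placebo arrays lay within the wider range of the Lira arrays.

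Acadm, the medium-chain enzyme, measured 18617, 18954 and 17661 with Lira and 18135, 18927 and 16466 with placebo. The lowest array was again placebo replicate 3, and the log2 difference was 0.05 ± 0.08 (SE). Acads, the short-chain enzyme, measured 2321, 2061 and 2332 with Lira and 2457, 2290 and 2010 with placebo. Its groups overlapped fully and the log2 difference was -0.007 ± 0.10 (SE). For the 4 dehydrogenases together the fold changes ran from 1 for Acadl and Acads to 1.04 for Acadvl.

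Hadha and Hadhb encode the alpha and beta subunits of the mitochondrial trifunctional protein, which carries out the remaining steps on long chains. Hadha measured 7436, 7232 and 7048 with Lira and 7498, 7525 and 6156 with placebo. Hadhb measured 18123, 19834 and 17722 with Lira and 18157, 18804 and 15686 with placebo on the probe set used. Both subunits were lowest on placebo replicate 3, and in both the other 2 placebo arrays lay within or above the Lira range. Log2 differences were 0.04 ± 0.09 (SE) for Hadha and 0.08 ± 0.09 (SE) for Hadhb.

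Hadh, the soluble 3-hydroxyacyl-CoA dehydrogenase that prefers shorter chains, measured 20087, 19508 and 19199 with Lira and 20975, 20427 and 19233 with placebo on 1455972_x_at. The highest 2 values were placebo arrays, and the third placebo array lay just above the lowest Lira array. Its log2 difference was -0.04 ± 0.08 (SE, adjusted p = 0.96 in limma). Etfdh, the flavoprotein dehydrogenase that hands the electrons to ubiquinone, measured 6603, 6115 and 6888 with Lira and 6894, 6701 and 5790 with placebo. Its log2 difference was 0.02 ± 0.09 (SE), and the lowest array was once more placebo replicate 3.

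**Figure D2:**
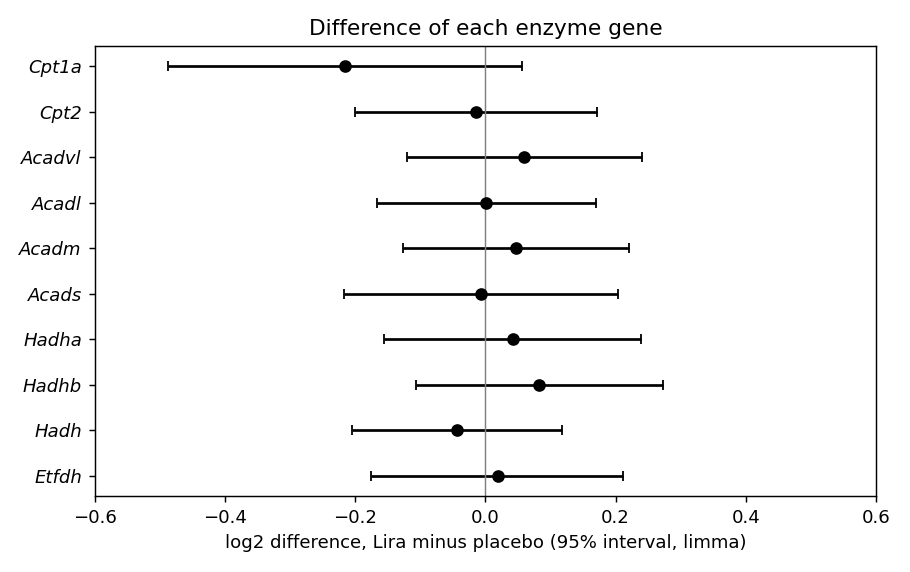
Log2 difference of each gene, Lira minus placebo, with its 95% interval from limma. All 10 intervals include 0, and Cpt1a, at -0.22, lies farthest from it.

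The enzymes had 1 low array in common. On placebo replicate 3 all 10 genes were below their own mean over the 6 arrays, where 48.6% of all genes tested were, and 6 of the 10 had their lowest value there, against 20.2% of all genes. The mean log2 deviation of the 10 genes on that array was -0.12. On the other placebo arrays it was 0.07 for replicate 1 and 0.06 for replicate 2, and on Lira replicates 1, 2 and 3 it was 0.02, -0.01 and -0.02. Hadha deviated most, by -0.21, followed by Hadhb at -0.20 and Acadvl at -0.18. Of the other pathway lists, the 4 acyl-CoA dehydrogenases of amino acid breakdown had a mean deviation of -0.18 on that array, lower than the enzymes themselves. The other PPAR-alpha targets had -0.13, the carnitine shuttle genes -0.06, the peroxisomal genes -0.05, the other matrix enzymes -0.03 and the regulators 0.06. The 18 tested genes of the citric acid cycle and respiratory chain had a mean deviation of -0.03 on placebo replicate 3. The 10 cardiomyocyte markers had -0.07, the 6 endothelial markers -0.19, the 6 fibroblast markers -0.18 and the 3 tested smooth muscle markers -0.14. The smooth muscle markers were as low on placebo replicates 1 and 2, at -0.16 and -0.14. The cardiomyocyte markers also had -0.07 on placebo replicate 1 and -0.08 on Lira replicate 3. On the other arrays the endothelial markers had 0.003 to 0.08 and the fibroblast markers -0.05 to 0.15. The 6 macrophage markers had 0.03 and the 3 tested atrial markers 0.43. Among these atrial markers Bmp10 was dim, at 4.33 to 77.4 with Lira and 6.96 to 66.1 with placebo. For red blood cells and fat cells the 1 tested gene of each, both dim, had 0.574 and -0.735. The part of these cell markers in the low enzyme signals was not tested.

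**Figure D3:**
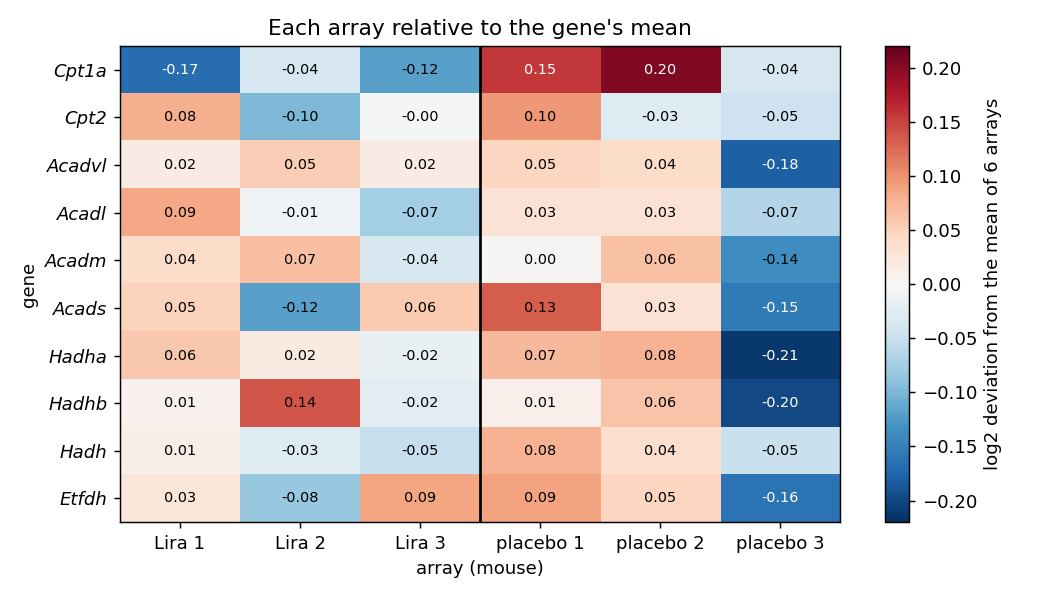
Log2 deviation of each array from the gene's own mean over 6 arrays, with genes as rows and arrays as columns, Lira left of the line and placebo right of it. The column of placebo replicate 3 is negative for all 10 genes, to -0.21 for Hadha.

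Without placebo replicate 3 the balance of directions turned. All 10 genes were below their own mean on that placebo array, so leaving it out lowers their differences by construction. The 10 genes then had 9 lower and 1 higher with Lira, and a median log2 difference of -0.05. The median over all genes was 0.007. In limma 0 of the 10 passed an adjusted or an unadjusted p of 0.05. Cpt1a differed by -0.29 ± 0.14 (SE). Cpt1a, Hadha and Hadh did not overlap between the groups, 3 of 10 genes, where 20.1% of all genes did not with these 5 arrays.

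The trifunctional protein genes lie head to head on mouse chromosome 5, with 272 bases between their annotated starts. The promoter window of Hadhb runs from 250 bases before to 50 bases after the gene's start. It shares 228 of its 300 bases with that of Hadha on the opposite strand. It is shown because the subunits had the same lowest array on the probe sets used. That array, placebo replicate 3, was also the lowest for Acadvl, Acadm, Acads and Etfdh, and for 20.2% of all genes tested. On the other bright Hadhb probe set, 1437172_x_at, it was the highest. The part of the shared bases in these values was not tested. The Hadhb window lies at chr5:30155003-30155302 on the plus strand of GRCm38.p6, from RefSeq. Capitals mark matches to the GC box GGGCGG on either strand.

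Hadhb: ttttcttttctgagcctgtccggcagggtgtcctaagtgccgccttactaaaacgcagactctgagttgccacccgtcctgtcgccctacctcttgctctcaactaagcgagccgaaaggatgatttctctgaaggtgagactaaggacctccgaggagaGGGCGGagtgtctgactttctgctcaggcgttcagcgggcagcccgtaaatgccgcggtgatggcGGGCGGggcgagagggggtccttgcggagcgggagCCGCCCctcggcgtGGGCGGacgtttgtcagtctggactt

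The GC box was present in the windows of 8 of the 10 genes, all but Acadvl and Acadm, and in 35.7% of 32851 promoter windows. Nuclear receptors of the PPAR and estrogen-related families bind sites built on the half-site AGGTCA. This half-site was found on either strand in the windows of Cpt1a, Acadvl and Acadm, 3 of 10 genes, and in 16.3% of all windows. A direct repeat of the half-site with any base N between the copies, present in 0.0396% of windows, and the motif TCAAGGTCA, present in 0.423%, both contain the half-site and matched in 0 of the 10. These 3 windows are shown because they join the gene whose groups did not overlap, Cpt1a, with 2 whose groups did. They lie at chr19:3323051-3323350 on the plus strand, chr11:70015379-70015678 on the minus strand and chr3:153944594-153944893 on the minus strand of GRCm38.p6, each printed along its gene's own strand, with the half-site in capitals. The Cpt1a window is set on a transcript start at base 3323301, 975 bases downstream of the outermost annotated start of the gene at base 3322326, whereas the windows of the other 9 genes are set on the outermost start.

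Cpt1a: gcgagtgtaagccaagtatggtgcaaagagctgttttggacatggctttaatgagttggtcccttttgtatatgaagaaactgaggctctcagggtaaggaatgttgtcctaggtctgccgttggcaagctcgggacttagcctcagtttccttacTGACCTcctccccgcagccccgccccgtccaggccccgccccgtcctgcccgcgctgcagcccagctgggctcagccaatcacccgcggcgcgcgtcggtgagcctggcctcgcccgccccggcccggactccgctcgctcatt

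Acadvl: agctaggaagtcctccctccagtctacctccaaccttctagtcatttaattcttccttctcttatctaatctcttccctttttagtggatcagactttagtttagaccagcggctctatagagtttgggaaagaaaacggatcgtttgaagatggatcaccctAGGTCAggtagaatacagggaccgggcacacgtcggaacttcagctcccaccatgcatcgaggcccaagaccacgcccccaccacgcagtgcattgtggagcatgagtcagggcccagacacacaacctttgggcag

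Acadm: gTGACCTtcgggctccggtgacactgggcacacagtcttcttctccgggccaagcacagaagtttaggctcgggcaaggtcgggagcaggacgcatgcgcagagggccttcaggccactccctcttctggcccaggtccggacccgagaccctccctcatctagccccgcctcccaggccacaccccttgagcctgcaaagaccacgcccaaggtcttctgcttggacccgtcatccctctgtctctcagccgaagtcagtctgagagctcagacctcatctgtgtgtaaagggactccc

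The half-site began 94 bases before the start used for the Cpt1a window, 87 before the start of Acadvl and 249 before that of Acadm. A match of letters describes the window and is no evidence of binding, and the start that sets a window need not be the one used in heart.

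Several genes had more than 1 probe set, and these did not all behave alike. Over the 19 probe sets, 0 passed an adjusted p of 0.05 in limma fitted on 24461 probe sets, where 0.00818% did. At an unadjusted p under 0.05 there were 3, all lower with Lira, against 5.6% of all probe sets. Groups did not overlap in 4 of the 19, all lower with Lira. Over all probe sets 11.2% did not overlap in either direction, and 5.57% were lower without overlap.

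The largest difference was on the Cpt1a probe set 1434866_x_at, which measured 66.8, 57.4 and 59.9 with Lira and 113, 96.9 and 141 with placebo. Every Lira array lay well below every placebo array. The log2 difference was -0.77 ± 0.19 (SE), with an unadjusted p of 0.0012 and an adjusted p of 0.50 in limma. The third Cpt1a probe set, 1438156_x_at, was dim and overlapped, at 39.4 ± 7.76 with Lira and 39.3 ± 10.0 with placebo (SD, n = 3 each). The probe sets of Cpt1a therefore gave differences of -0.22, -0.77 and 0.01 for the same gene.

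Hadhb was measured by a second bright probe set, 1437172_x_at, at 12495, 14102 and 9121 with Lira and 14739, 15714 and 19272 with placebo. Here the groups did not overlap and placebo replicate 3 was the highest array, whereas it was the lowest on the probe set used. The log2 difference was -0.49 ± 0.14 (SE), with an unadjusted p of 0.0046 and an adjusted p of 0.71 in limma. The direction for Hadhb thus depended on the probe set. Hadh on 1436756_x_at measured 307, 306 and 207 with Lira and 341, 435 and 343 with placebo, a difference of -0.44 ± 0.16 (SE, adjusted p = 0.81 in limma), while 1460184_at gave 0.04 ± 0.11. On 1460184_at placebo replicate 3 was low, at 7232, with the other 5 arrays between 8819 and 9759.

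**Figure D4:**
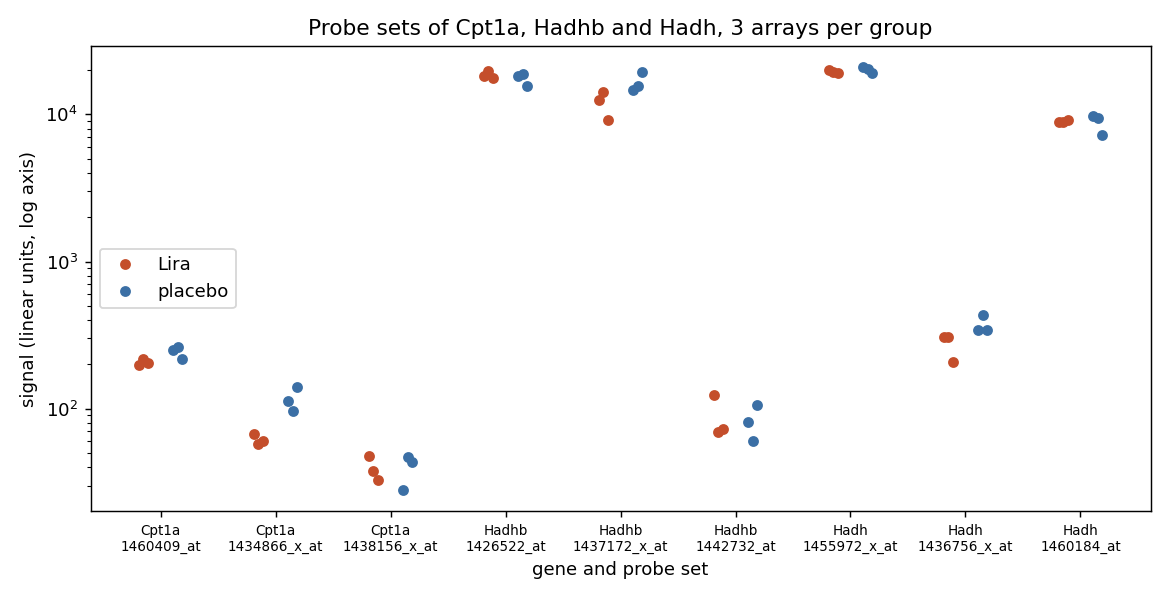
Signal of each probe set of Cpt1a, Hadhb and Hadh on a log axis, with 1 point per array, Lira left of placebo. The Lira arrays lie below the placebo arrays on 1460409_at, 1434866_x_at, 1437172_x_at and 1436756_x_at, and overlap them on the other 5.

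All 3 member probe sets with an unadjusted p under 0.05 carry the suffix _x_at, which marks probes that also match other transcripts. The probe set used for Hadh, 1455972_x_at, carries it too. Of 1521 tested probe sets with this suffix 8.35% were lower without overlap, against 5.38% of the other 22940. An unadjusted p under 0.05 in limma was reached by 8.35% and 5.41%. Of those with the suffix 60.5% were lower with Lira, with a median log2 difference of -0.053. Of the others 48.1% were lower, with a median of 0.009. The part of this shift in the values of Cpt1a, Hadhb and Hadh was not tested. The remaining probe sets overlapped between groups. They were dim second probe sets of Cpt2, Acadl, Hadhb and Etfdh, the brightest single value among them being 151 for Cpt2 on Lira replicate 1, with 38.3 to 64.3 on the other arrays.

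The rest of the pathway was read from 7 lists with 89 genes, 76 of them tested. Over these 76 genes 44 were higher and 32 lower with Lira, and 0 passed an adjusted p of 0.05 in limma in either direction, with a smallest adjusted p of 0.61. Before adjustment 6 genes had a p under 0.05, 7.89% of them against the 6.02% of all genes, and 8 genes, 10.5% against 11.4%, did not overlap. The lists are close to the background by these counts.

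The 4 other carnitine shuttle genes had a median log2 difference of -0.07, with 1 higher and 3 lower. Slc22a5, the carnitine transporter of the plasma membrane, measured 478, 444 and 361 with Lira and 335, 353 and 336 with placebo, so that every Lira array was above every placebo array, with a difference of 0.30 ± 0.12 (SE, adjusted p = 0.76 in limma). Slc25a20, which exchanges acylcarnitine for carnitine across the inner membrane, measured 2737 ± 190 with Lira and 3019 ± 275 with placebo (SD, n = 3 each). Cpt1c, the brain form, was dim at 31.8 ± 10.6 and 36.2 ± 9.95.

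The 11 other matrix enzymes had a median of 0.03, with 7 higher and 4 lower. Eci2, an enoyl-CoA isomerase that prepares unsaturated chains, had the lowest p of this list. It measured 2237, 2238 and 2283 with Lira and 2663, 2634 and 2820 with placebo, with both groups tight and apart. Its difference was -0.26 ± 0.08 (SE, unadjusted p = 0.0064 and adjusted p = 0.61 in limma). Decr1, the dienoyl-CoA reductase for the same kind of substrate, measured 7540 ± 380 with Lira and 8100 ± 245 with placebo (SD, n = 3 each). Its adjusted p was 0.89 in limma. The groups of Decr1 did not overlap, but the highest Lira array, at 7923, and the lowest placebo array, at 7950, were close. Echs1, the short-chain hydratase, measured 5985 ± 464 and 5225 ± 445 with overlap. Etfa and Etfb, the flavoprotein subunits that pass electrons to Etfdh, differed by 0.06 ± 0.08 and 0.08 ± 0.08 (SE), and the thiolase Acaa2 by -0.02 ± 0.08.

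The 4 acyl-CoA dehydrogenases of amino acid breakdown were all higher, with a median of 0.07, and 0 had an unadjusted p under 0.05. Gcdh, the glutaryl-CoA enzyme, measured 530 ± 54.8 with Lira and 470 ± 99.8 with placebo (SD, n = 3 each). Ivd, which acts on isovaleryl-CoA, differed by 0.07 ± 0.12 (SE) and Acadsb, the short/branched-chain enzyme, by 0.07 ± 0.12.

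Peroxisomes shorten very long chains before the mitochondrion takes over. The 9 tested peroxisomal genes had a median of 0, with 5 higher and 4 lower. Scp2, which encodes a peroxisomal thiolase and sterol carrier, measured 4425, 4569 and 4232 with Lira and 4845, 5404 and 6272 with placebo, a difference of -0.31 ± 0.10 (SE, adjusted p = 0.61 in limma). Its other bright probe set, 1426219_at, differed by 0.03 ± 0.08. Hsd17b4, the peroxisomal multifunctional enzyme, differed by -0.34 ± 0.15 on 1455777_x_at (adjusted p = 0.81 in limma) and by -0.04 ± 0.11 on 1417369_at, and Crot, which makes carnitine esters for export, by -0.12 ± 0.12.

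The 19 tested regulators had a median of 0, with 9 higher and 10 lower. Ppara, the receptor itself, measured 568 ± 62.6 with Lira and 596 ± 19.8 with placebo (SD, n = 3 each). Ppargc1a, which encodes PGC-1alpha, measured 1387 ± 283 and 1435 ± 286, and Esrra, an estrogen-related receptor, 1166 ± 95.4 and 1194 ± 169. The groups of these genes overlapped. Esrrb, a relative of Esrra, differed by -0.66 ± 0.22 (SE, adjusted p = 0.64 in limma) on 1441921_x_at, with 157, 83.7 and 157 with Lira and 268, 170 and 204 with placebo. Its other probe set of similar brightness, 1436926_at, differed by -0.01 ± 0.17. Rxrg, a partner of PPAR-alpha, differed by -0.24 ± 0.12 and Sirt5, a mitochondrial desuccinylase, by -0.19 ± 0.10 (SE), both with overlap.

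The 11 other tested PPAR-alpha targets had a median of 0.02, with 6 higher, 5 lower and 0 with separate groups. Pdk4, the kinase that shuts off pyruvate dehydrogenase when fat is burnt, measured 8923, 5159 and 3422 with Lira and 7150, 7266 and 5197 with placebo. The Lira arrays spanned a wider range than the placebo arrays on both sides. Angptl4, an inhibitor of lipoprotein lipase, measured 348, 111 and 91.9 with Lira and 91.4, 90.6 and 92.2 with placebo, with 1 high Lira array and the other 5 arrays between 90.6 and 111. Its difference was 0.67 ± 0.33 (SE, adjusted p = 0.83 in limma). The mean log2 deviation of this list was 0.43 on Lira replicate 1, -0.08 on Lira replicate 2 and -0.26 on Lira replicate 3, and -0.13 to 0.04 on the placebo arrays. Acot2, a mitochondrial thioesterase, differed by -0.25 ± 0.12 and Plin5, which coats lipid droplets, by -0.18 ± 0.10 (SE).

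The 18 tested genes of the citric acid cycle and respiratory chain had 12 higher and 6 lower, a median of 0.03 and 0 with a p under 0.05 before adjustment in limma. Atp5a1, a subunit of ATP synthase, measured 17775 ± 572 with Lira and 15794 ± 1904 with placebo (SD, n = 3 each), with separate groups and placebo replicate 3 lowest at 13626. Its other probe sets differed by -0.28 ± 0.12 and 0.09 ± 0.08 (SE). Cycs, cytochrome c, differed by -0.13 ± 0.09 and Vdac1, the outer membrane channel, by 0.14 ± 0.10 (SE).

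**Figure D5:**
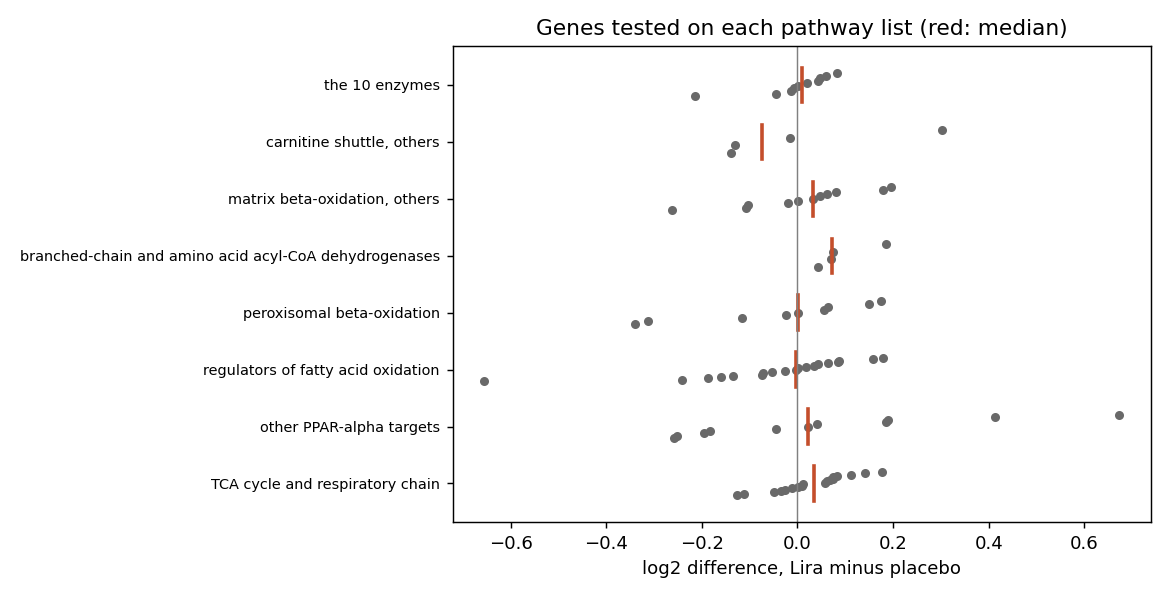
Log2 difference, Lira minus placebo, of each tested gene on the enzyme list and on the 7 other pathway lists, with a red line at the median. The medians lie between -0.07 and 0.07, and Esrrb at -0.66 and Angptl4 at 0.67 are the outermost genes.

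The genes whose pattern over the 6 arrays was most like the mean of the 10 enzymes were Hsdl2, Ier2 and Ptpn4. Hsdl2 measured 1735, 1650 and 1617 with Lira and 1820, 1861 and 1407 with placebo, lowest on placebo replicate 3 like most of the enzymes. They were picked as the highest of all genes tested, so their Pearson's r of 0.989, 0.989 and 0.987 over 6 arrays, with Spearman's rho of 0.943, 0.943 and 1, is a description. Leaving out placebo replicates 1 and 3, the arrays farthest from the median of the enzyme mean, r was 0.998, 0.964 and 0.917 over the remaining 4 arrays.

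The 6 arrays had been scaled to the same 2% trimmed mean of 150, and their number sets the precision. All 10 cardiomyocyte markers were bright, with summed signals of 247300 to 310300 on the Lira arrays and 250700 to 264100 on the placebo arrays, although the extraction text of the labels speaks of blood. Summed signals were 3025 to 3278 and 2797 to 3117 for the 6 endothelial markers, 11450 to 13660 and 10960 to 11540 for the 6 fibroblast markers, 2468 to 2872 and 2279 to 2504 for the 6 macrophage markers, and 1814 to 3690 and 1428 to 1691 for the 3 tested of 4 smooth muscle markers. The smooth muscle sums did not overlap between the groups. Acta2 alone of these 3 genes had separate groups, at 1520 to 3380 with Lira and 1070 to 1390 with placebo, while Tagln and Myh11 overlapped, with log2 differences of -0.02 and 0.16. Of the T cell markers 0 of 5 passed the filter on low signals, and of the red blood cell and fat cell markers 1 of 5, Alas2, and 1 of 6, Retn, did. The fat cell marker Adipoq measured at most 11.8 with Lira and 16.6 with placebo, and the haemoglobin gene Hba-a1 at most 17.4 and 31.8. Of 5 atrial markers 3 were tested, with summed signals of 1583 to 2262 with Lira and 2746 to 3197 with placebo, most of it from Nppa, at 1390 to 2140 with Lira and 2610 to 3040 with placebo. Myl4 lay the other way, at 109 to 120 with Lira and 77.1 to 108 with placebo, and the dim Bmp10 overlapped. No marker was listed at 0. The ratio of 3′ to 5′ signal of the beta-actin control was 1.63 to 1.74 with Lira and 1.55 to 1.67 with placebo. The part of these markers in the enzyme values was not tested.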

How the data were processed

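Left ventricular RNA of 6 mice was measured on Affymetrix mouse arrays. Per the submitters' processing notes, the authors used Affymetrix Expression Console, and what they deposited are linear signal intensities. The sources used here do not give its version and algorithm. No detection calls were used. Groups follow the labels' agent field, and each sample came from its own mouse, per the design text.

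Of 45101 probe sets, 64 controls were left out. The 34945 probe sets with 1 gene were named through gene IDs (99.42% matched to RefSeq, GRCm38.p6), and the 932 with several genes were not used. Each gene was represented by its brightest probe set on average, a pseudocount of 16 was added before taking log2, and the dimmest 30% of genes by mean were dropped, which kept means of at least 23.7 signal units. On this scale the fold changes of dim genes are too small. Lira and placebo were compared two-sided with limma 3.58.1 in R 4.3.3 (lmFit, and eBayes with its trend option, Benjamini-Hochberg over all genes), and likewise over 24461 probe sets. The fit was tested on simulated data. Named are the 10 enzymes, the 3 genes with the smallest p of each pathway list, a fixed set of pathway genes, and the 3 genes most like the enzymes. Cell markers were those of cardiomyocytes, endothelial cells, fibroblasts, smooth muscle cells, macrophages, T cells, red blood cells, fat cells and atrial myocytes. The genes and lists were chosen with earlier results of these data known. Alternatives were other normalisations, pseudocounts, filters, probe set rules, variance models, array weights, a replicate block and each array left out.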

Additional observations from a re-analysis of the deposited data

How the results depend on the processing

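With 3 mice per group the data do not exclude differences within the intervals given above. Scaling each array to one trimmed mean leaves only changes relative to other genes. In limma, 0 of the 10 genes and 0 of the 19 probe sets passed under each of the 18 alternatives for genes and 17 for probe sets. An unadjusted p under 0.05 in limma was reached by 1 of the 10 genes with probe sets averaged, beside 688 of 12735 genes. Under the other alternatives 0 of the 10 reached it. The smallest adjusted p of any enzyme over these alternatives was 0.71, for Cpt1a. The Cpt1a difference was negative in all 18, from -0.32 to -0.17. Except where probe sets were averaged, these all used the probe set 1460409_at. The other Cpt1a probe sets, 1434866_x_at and 1438156_x_at, gave -0.77 and 0.01. The median of the 10 genes lay between -0.05, without placebo replicate 3, and 0.06, without placebo replicate 1. The number of the 10 genes whose groups did not overlap was 0 with median centring, against 8.16% of all genes tested. With single arrays left out it was 1 to 3, against 20% to 22.8% of all genes. Over all genes, 7 passed, but 1 without a filter on low values, 0 with the probe sets of a gene averaged, 0 without the variance trend (688 and 683 at an unadjusted p under 0.05 in limma), and 1 to 9 with single arrays left out.

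Signs near 0 turned, and the causes were not tested. With the probe sets of a gene averaged the log2 difference was 0.20 for Cpt2, -0.01 for Acadl, -0.11 for Hadhb and -0.08 for Etfdh. With quantile normalisation it was -0.05 for Acadl and 0.01 for Acads, with median centring 0 for Acads, and with array weights 0 for Cpt2 and Etfdh. Without probe sets ending in _x_at, an alternative added after seeing the data, it was 0.04 for Hadh. With single arrays left out the ranges were -0.06 to 0.03 for Cpt2, -0.01 to 0.10 for Acadvl, -0.04 to 0.04 for Acadl, -0.01 to 0.09 for Acadm, -0.09 to 0.06 for Acads, -0.05 to 0.09 for Hadha and -0.06 to 0.07 for Etfdh. Arrays with the same replicate number in the labels had correlations of deviations of -0.03, 0.08 and -0.09. Arrays with different numbers had -0.15 to 0.18. With 3 arrays per group these values cannot decide whether the numbers pair the arrays. With the replicate block 7 genes and 0 enzymes passed.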
